A study of Mus musculus with 14 samples.

Results

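The choroidal endothelial genes described here are 32 genes that were given by name: genes of vascular endothelial junctions, receptors, transcription factors, surface and matrix proteins and capillary proteins, and Vwf and Nos3. All 32 were found among the 42687 genes of the count table, by matching symbols to Ensembl gene IDs. The libraries came from the retinal pigment epithelium (RPE) of 3-month-old C57BL/6J mice, and were sequenced as poly(A) RNA. KO mice were Best1-Cre+/-; Clic4f/f, in which Cre driven by the promoter of the RPE gene Best1 deletes floxed Clic4, a chloride intracellular channel family gene. They were compared with wild-type mice (WT, without Cre or floxed alleles), with Clic4f/f mice without Cre (Ctrl) and with Best1-Cre+/- mice without floxed alleles (CreCtrl), all of the same strain and age. The WT set had 3 WT and 3 KO libraries, the Ctrl set 2 Ctrl and 2 KO libraries, and the CreCtrl set 2 CreCtrl and 2 KO libraries, and the sets shared no library. The genotype of the controls and the set they belong to cannot be told apart, so levels are compared between KO and control within a set. The RPE of both eyes of a mouse was pooled, after it had been loosened enzymatically from cups that also held choroid and sclera, and endothelium is not part of the RPE.

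The choroid lies behind the RPE, and its innermost layer, the choriocapillaris, is a flat bed of wide, fenestrated capillaries that feeds the RPE and the photoreceptors. Endothelial cells line these vessels. They are held together by VE-cadherin and claudin junctions, sense VEGF and angiopoietins through receptor tyrosine kinases, and keep their identity through ETS and SOX family transcription factors. Plvap, which builds the diaphragms that span fenestrae, and Car4, a membrane-anchored carbonic anhydrase, are textbook genes of the choriocapillaris, while Pecam1 and Cdh5 are expressed in endothelium of nearly every kind. VEGFA made by the RPE is known to maintain the choriocapillaris.

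The sequences 5′ of the start site are shown for receptor tyrosine kinases of the list, because receptors sit at the head of the VEGF and angiopoietin pathways. Windows of RefSeq (GRCm38.p6) were read for 16 of the 32 genes, 22 windows in all. Ecscr was left out of this search by rule, so these counts do not show how many genes of the list RefSeq covers. The 250 bases before the start were read 5′ to 3′ on the strand of the gene. Capitals mark the ETS core in the contexts CAGGAA and CCGGAA and the SOX core ACAAT, each searched on both strands. The ETS core in other contexts was not searched. Tek is at chr4:94739039-94739288 (plus strand), Kdr at chr5:75978456-75978705 (minus strand), of which 3 bases lie inside the GENCODE gene, and Flt1 at chr5:147726012-147726261 (minus strand).
Tek: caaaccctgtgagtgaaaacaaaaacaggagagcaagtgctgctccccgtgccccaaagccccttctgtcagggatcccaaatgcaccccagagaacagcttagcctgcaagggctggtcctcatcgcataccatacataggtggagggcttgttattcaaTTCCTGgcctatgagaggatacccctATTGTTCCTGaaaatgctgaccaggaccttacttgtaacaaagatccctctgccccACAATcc
Kdr: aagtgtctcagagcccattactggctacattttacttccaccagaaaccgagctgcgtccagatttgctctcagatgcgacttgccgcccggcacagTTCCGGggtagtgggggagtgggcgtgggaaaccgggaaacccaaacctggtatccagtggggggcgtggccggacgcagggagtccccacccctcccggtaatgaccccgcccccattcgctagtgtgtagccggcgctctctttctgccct
Flt1: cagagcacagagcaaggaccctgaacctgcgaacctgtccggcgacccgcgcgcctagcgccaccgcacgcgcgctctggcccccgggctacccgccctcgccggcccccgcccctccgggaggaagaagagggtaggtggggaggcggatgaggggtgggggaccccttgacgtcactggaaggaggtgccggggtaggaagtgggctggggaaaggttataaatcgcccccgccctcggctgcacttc
Tek held 2 CAGGAA and 2 ACAAT, of which 1 of each share a base, Kdr held 1 CCGGAA, and Flt1 held none of the 3 motifs in these letters. The windows of Tie1 and Flt4 lay 212 and 250 bases inside the GENCODE genes and are not printed. CAGGAA was found in 9 of the 22 windows read for the list (40.9%) and in 25.7% of all 32851 RefSeq windows. CCGGAA was found in 2 (9.09%) and 12.0%, and ACAAT in 6 (27.3%) and 27.7%. These matches describe letters in a window and were not tested.

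Levels are given as CPM, the counts of a gene relative to the total of its library after TMM scaling over all 14 libraries. Library totals ran from 9828293 to 32384166 counts, so that 3 counts were worth 0.0926 to 0.305 CPM before TMM scaling. Clic4 itself, the targeted gene, was at 62.1 to 229.8 CPM in the 7 control libraries and at 9.78 to 33.9 CPM in the 7 KO libraries, and each KO library lay below every control library. Of 10 RPE markers, 10 were at 1 CPM or more in every library. Of the 32 endothelial genes, 11 were at 1 CPM or more in every library, 30 had a mean of at least 1 CPM, and none was at 0 throughout. Per kilobase of exon, the scale on which genes can be compared, Ramp2 was highest in the controls (median 56.3 CPM per kilobase), followed by Plvap (29.3), Eng (16.2), Cd34 (9.84) and Cdh5 (7.65). The ranges of neighbours in that order overlapped. Gpihbp1 (median 0.1) and Car4 (median 0) were lowest.

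Endothelial RNA was lower in the KO libraries of all 3 sets. The summed level of the endothelial genes without Ramp2 was 939.3 to 1587.7 CPM in the WT libraries against 130.5 to 310.4 CPM in their KO libraries. With Ctrl, 337.6 and 346.8 faced 70.2 and 97.4 CPM, and with CreCtrl 534.3 and 920.1 faced 119.9 and 131.4 CPM. In each set the lowest control was above the highest KO library. In KO vs WT, 23 of the 31 endothelial genes tested fell (adjusted p under 0.05, edgeR quasi-likelihood test with Benjamini-Hochberg adjustment over all genes) and none rose, where 19.0% of the 15428 genes tested fell and 16.1% rose. Their median log2 fold change was -2.62, with -0.08 for all genes tested. In KO vs CreCtrl, 22 of 29 fell and none rose, where 12.2% of 15963 genes fell and 3.60% rose. The medians were -2.54 and -0.02. The count in KO vs WT was 15 when WT replicate 2 was left out, 13 when WT replicate 3 was, and 14 when the second KO library of that set was, and with all libraries fitted as 6 groups that in KO vs CreCtrl was 12. In KO vs Ctrl, edgeR called 0 of 30, as it did 0.00% of 15287 genes in either direction. The median in that set was -2.47, with 0.01 for all genes, and 23 endothelial genes were lower at an unadjusted p under 0.05, as were 1846 genes in either direction. DESeq2 called 19 of the 30 lower in KO vs Ctrl, where it called 7.16% of all genes lower. With all 14 libraries in 1 fit and the set as covariate, 29 of 32 fell and none rose, where 17.6% of 17662 genes fell and 18.5% rose. The medians were -2.70 and -0.02.

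The genes whose KO libraries all lay below all control libraries numbered 28 of 31 tested for WT, 28 of 30 for Ctrl and 26 of 29 for CreCtrl. The share over all genes tested was 24.5%, 22.7% and 34.9%. In every set together this held for 25 of 32, against 9.57% of all genes. Some of the genes entered a test only because the controls were over the minimum level, 8 in KO vs WT, 15 with Ctrl and 3 with CreCtrl. Among the genes called, these were Icam2, Tek and Tal1 in KO vs WT, and Icam2 and Ecscr in KO vs CreCtrl. For them, a call and a lack of overlap follow in part from that filter. The fit of all libraries used the same kind of filter, and genes that entered it only through controls were not counted. Its calls of genes as low in KO as Sox17 and Tal1 carry this limit too. Testing all genes that had any count instead, 23 of 32 fell in KO vs WT, 22 of 31 with Ctrl and 29 of 32 with CreCtrl. Over all genes tested that way, 2606 of 22729 fell in KO vs WT, 1632 of 23965 with Ctrl and 2931 of 24610 with CreCtrl. In the fit of all libraries 29 of 32 fell that way, where 3319 of 27272 genes fell. In bulk libraries of RPE loosened from cups with choroid, fewer endothelial cells collected and less RNA per endothelial cell cannot be told apart. The amount of choroid collected with the RPE was not tested. The plot of log2 fold changes by gene shows the 4 comparisons side by side.

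**Figure D1:**
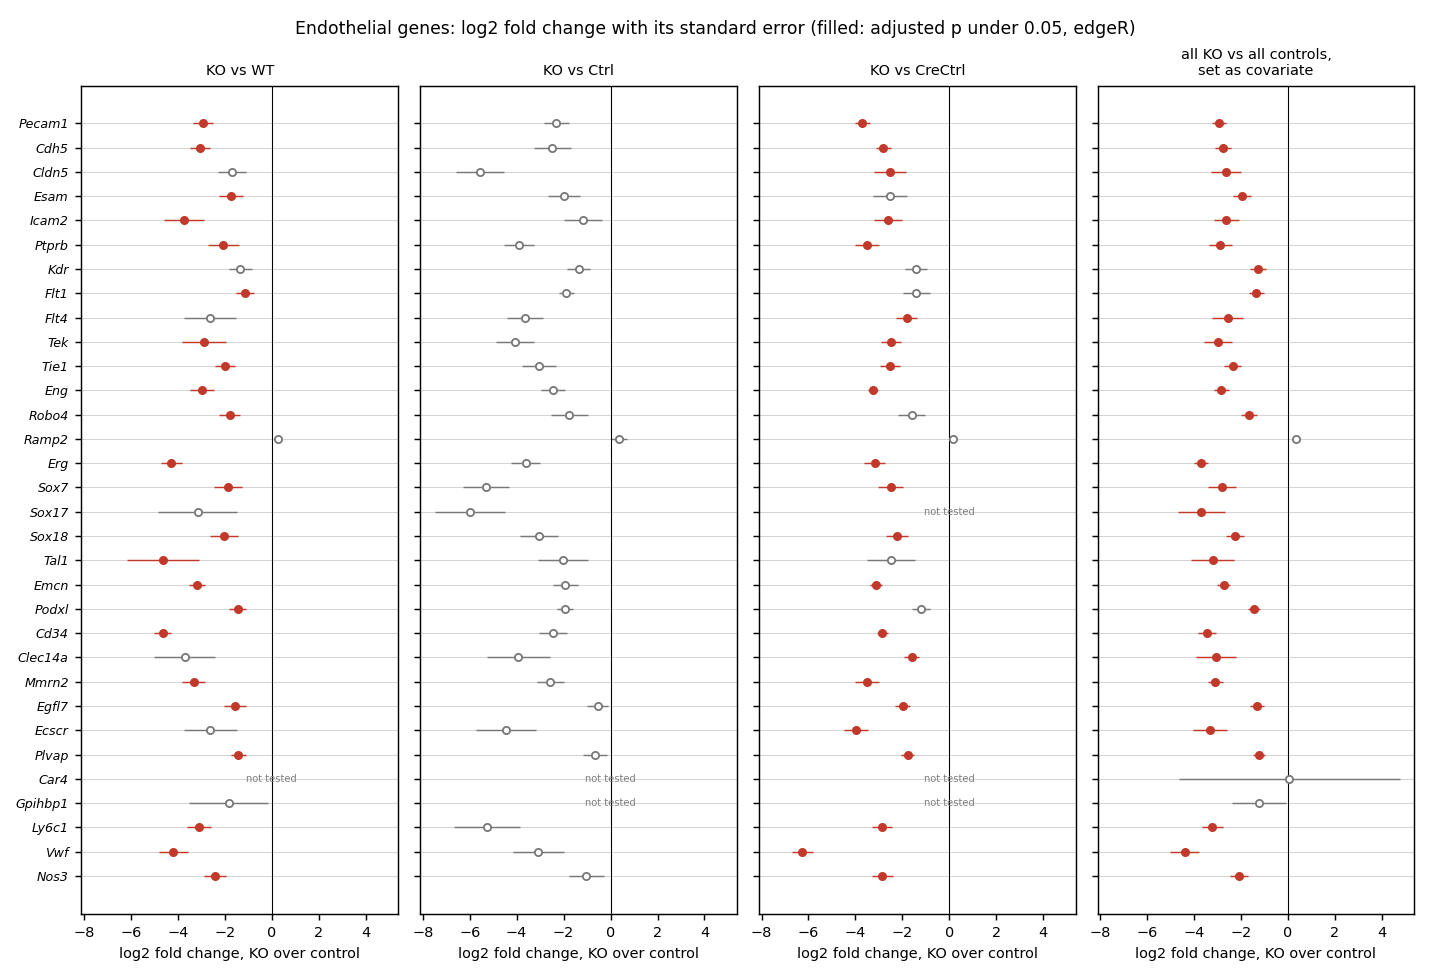
Log2 fold change of KO over control libraries (x axis) for each of the 32 endothelial genes (y axis, in the order of their roles), with bars for the standard error, in KO vs WT (3 and 3 libraries), KO vs Ctrl (2 and 2), KO vs CreCtrl (2 and 2) and all 14 libraries with the set as covariate; filled points have an edgeR adjusted p under 0.05. The points lie left of 0 in each panel, except for Ramp2, Car4 in the fit of all libraries (0.06) and genes that were not tested.

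Markers of several other cell types moved with the endothelial genes, and others did not. The summed level of 10 fibroblast markers was 7951.9 to 8272.1 CPM in the WT libraries against 280.6 to 829.8 CPM in their KO libraries. It was 1288.2 and 2398.5 against 123.4 and 318.4 CPM with Ctrl, and 1407.3 and 2957.7 against 254.3 and 348.3 CPM with CreCtrl. Of 9 pericyte and smooth muscle markers, 5 fell and none rose in KO vs WT and in KO vs CreCtrl, and their summed level was 2417.9 to 2510.9 CPM in the WT libraries against 412.6 to 507.5 CPM in their KO libraries. Platelet markers summed to 6.06 to 41.7 CPM in the 7 controls and 2.22 to 6.62 CPM in the 7 KO libraries. Of 3 platelet markers tested, 1 fell in KO vs WT and 1 in KO vs CreCtrl. The summed level of 10 RPE markers was higher in the KO libraries, at 13606.5 to 20772.3 CPM in the WT libraries against 67306.4 to 74986.5 CPM in their KO libraries. They summed to 42461.4 and 43005.5 against 65255.5 and 65709.7 CPM with Ctrl, and to 46314.1 and 53274.8 against 65645.0 and 72436.8 CPM with CreCtrl. Gene by gene, 8 of the 10 RPE markers rose and none fell in KO vs WT, where Best1 was at -1.82 ± 0.66 (adjusted p = 0.0616). In KO vs CreCtrl only Lrat rose (1.26 ± 0.30, adjusted p = 0.0364) and Pmel, a pigment granule protein, fell (-1.17 ± 0.18, adjusted p = 0.00913). Schwann cell and melanocyte markers summed to 207.2 to 256.3 CPM in the WT libraries against 494.9 to 579.4 CPM in their KO libraries, where 2 of the 4 tested rose and 1 fell, and overlapped in the Ctrl set (425.1 and 592.4 against 490.5 and 797.1 CPM). All 5 erythrocyte markers fell in KO vs WT and 2 of 5 in KO vs CreCtrl, and their sums overlapped in the Ctrl set (152.1 and 264.1 against 80.7 and 215.3 CPM). Of 10 myeloid markers, 9 fell and 1 rose in KO vs WT, and 8 fell and none rose in KO vs CreCtrl. Their summed level overlapped between KO and control libraries in the Ctrl set (656.4 and 985.6 against 823.5 and 1356.1 CPM). Rod markers ranged from 26.8 to 4357.6 CPM over the 14 libraries, with none called in KO vs WT and 8 of 8 lower in KO vs CreCtrl. Over all genes tested, 19.0% fell and 16.1% rose in KO vs WT, and 12.2% fell and 3.60% rose in KO vs CreCtrl. No marker of these lists was at 0 in every library. Their part in the result on the endothelial genes was not tested.

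**Figure D2:**
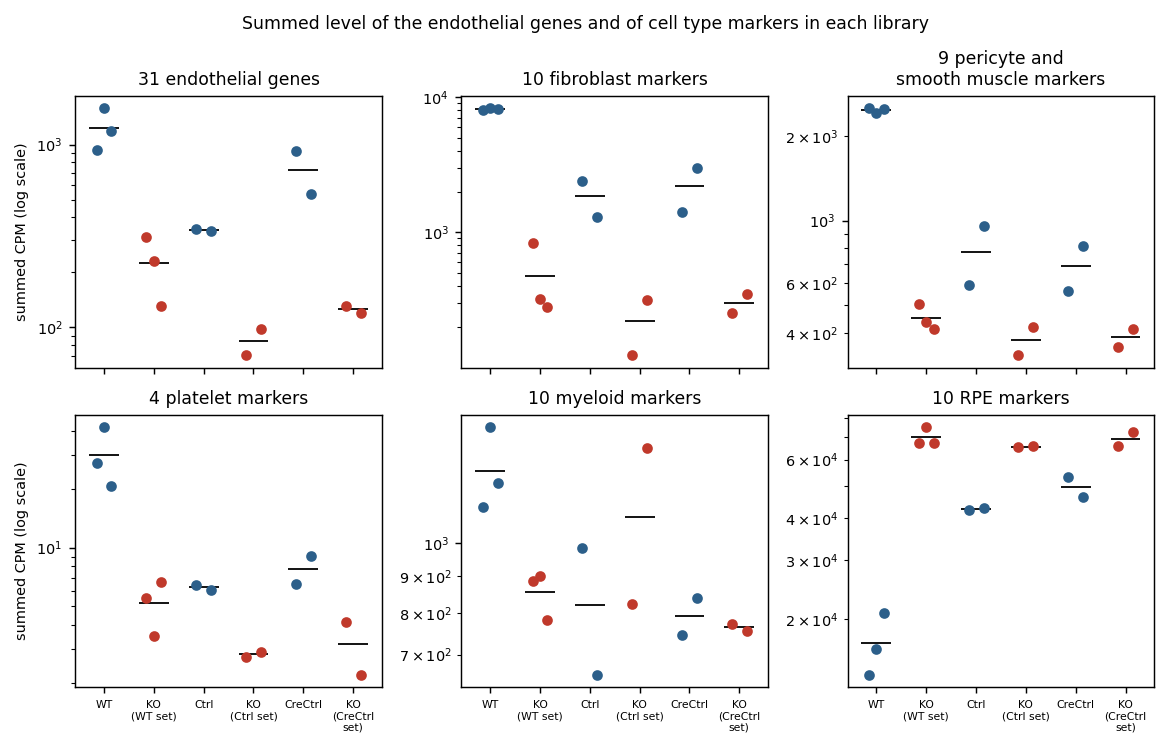
Summed CPM (y axis, log scale) of 31 endothelial genes (all but Ramp2) and of fibroblast, pericyte and smooth muscle, platelet, myeloid and RPE markers in each of the 14 libraries, by group (x axis); blue points are controls, red points KO libraries, and bars group means. Endothelial, fibroblast, pericyte and smooth muscle and platelet sums are lower in the KO libraries of each set, RPE sums are higher, and myeloid sums overlap in the Ctrl and CreCtrl sets.

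Among the junction and adhesion genes, 5 of 6 fell in KO vs WT and 5 of 6 in KO vs CreCtrl. Pecam1 (CD31, ENSMUSG00000020717, chr11:106654217-106750628), an adhesion molecule of endothelial contacts, was at 23.7, 75.9 and 34.6 CPM in the WT libraries and 7.21, 5.24 and 6.75 CPM in their KO libraries. The Ctrl set read 5.2 and 7.17 against 1.24 and 1.25 CPM, and the CreCtrl set 27.6 and 19.8 against 1.49 and 2.19 CPM. Every KO library lay below the controls of its set, and Pecam1 fell (log2 fold change -2.94 ± 0.43, adjusted p = 0.00102) in KO vs WT (± SE here and below) and -3.71 ± 0.32, adjusted p = 0.00278 in KO vs CreCtrl. Cdh5 (VE-cadherin, ENSMUSG00000031871, chr8:104101625-104144511), the cadherin of endothelial adherens junctions, was at 57.1, 86.7 and 46.5 CPM in the WT libraries and 14.1, 4.89 and 5.95 CPM in their KO libraries. Ctrl libraries held 18.5 and 23.6 CPM and their KO libraries 1.11 and 6.32 CPM, while CreCtrl libraries held 32.2 and 26.3 CPM and theirs 3.06 and 5.42 CPM. Again no KO library reached a control of its set, with log2 fold changes of -3.06 ± 0.43, adjusted p = 0.000789 in KO vs WT, -2.49 ± 0.79, adjusted p = 0.266 in KO vs Ctrl, and -2.81 ± 0.32, adjusted p = 0.00489 in KO vs CreCtrl. Cldn5, the main tight junction claudin of endothelium, was at 9.36, 12.8 and 16.9 CPM in the WT libraries and 8.84, 2.72 and 1.8 CPM in their KO libraries. Its Ctrl values of 2.76 and 9.48 CPM stood beside 0.0652 and 0.179 CPM in KO, and its CreCtrl values of 8.77 and 2.86 CPM beside 0.537 and 1.49 CPM. In no set did KO and control overlap, but the KO libraries of the WT set spread from 1.8 to 8.84 CPM and that comparison was not called (-1.69 ± 0.61, adjusted p = 0.0614), while KO vs CreCtrl was (-2.53 ± 0.69, adjusted p = 0.0499). Esam, an adhesion molecule of tight junctions, was at 6.4, 20.3 and 16.9 CPM in the WT libraries and 7.07, 3.84 and 3.68 CPM in their KO libraries. Against KO levels of 0.652 and 0.656 CPM the Ctrl libraries had 2.3 and 2.9 CPM, and against 1.57 and 0.904 CPM the CreCtrl libraries had 11.5 and 2.41 CPM. Its highest KO library of the WT set (7.07 CPM) was above the lowest WT library (6.4 CPM), it fell in KO vs WT (-1.72 ± 0.51, adjusted p = 0.0284), and KO vs CreCtrl missed the threshold (-2.54 ± 0.72, adjusted p = 0.054). Icam2, a ligand of leukocyte integrins, was at 4.51, 8.26 and 6.44 CPM in the WT libraries and 1.09, 0.14 and 0.334 CPM in their KO libraries. With Ctrl, 0.922 and 1.34 CPM faced 0.587 and 0.418 CPM, and with CreCtrl 3.21 and 1.52 CPM faced 0.372 and 0.417 CPM. All its KO libraries were below the controls of their set, with a log2 fold change of -3.74 ± 0.87 in KO vs WT and -2.61 ± 0.60 in KO vs CreCtrl, both called. In every set Icam2 entered the test only because its controls were over the minimum level. Ptprb (VE-PTP), a phosphatase that acts on Tek and VE-cadherin, was at 24.5, 62.6 and 34.1 CPM in the WT libraries and 16.7, 13.3 and 2.0 CPM in their KO libraries. KO and control gave 1.37 and 0.656 against 10.4 and 19.9 CPM in the Ctrl set, and 4.01 and 4.27 against 69.2 and 22.2 CPM in that of CreCtrl. The sets did not overlap, and Ptprb fell, at -2.07 ± 0.66, adjusted p = 0.0383 in KO vs WT and -3.50 ± 0.51, adjusted p = 0.00868 in KO vs CreCtrl, with -3.90 ± 0.62, adjusted p = 0.109 in KO vs Ctrl.

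Of the 8 receptors, 5 fell in KO vs WT and 4 in KO vs CreCtrl, and 7 in the fit of all libraries. Kdr, the main signalling receptor for VEGFA, was at 27.7, 32.6 and 35.9 CPM in the WT libraries and 21.7, 16.4 and 3.94 CPM in their KO libraries. The Ctrl set read 26.9 and 14.3 against 10.4 and 5.67 CPM, and the CreCtrl set 38.6 and 12.3 against 10.9 and 8.62 CPM. Its KO libraries were below their controls in every set, but its log2 fold changes were among the smaller ones and were not called within a set (-1.34 ± 0.50, adjusted p = 0.0705 in KO vs WT, -1.42 ± 0.48, adjusted p = 0.0768 in KO vs CreCtrl). In the fit of all libraries it fell (-1.29 ± 0.34, adjusted p = 0.00838). Flt1, which binds VEGFA and placental growth factor and limits VEGF signalling, was at 35.1, 46.5 and 33.7 CPM in the WT libraries and 22.9, 26.3 and 8.42 CPM in their KO libraries. Ctrl libraries held 24.2 and 33.7 CPM and their KO libraries 8.54 and 7.22 CPM, while CreCtrl libraries held 63.1 and 14 CPM and theirs 15.2 and 14.9 CPM. In the CreCtrl set 1 control lay above and the other below the KO libraries, and Flt1 fell in KO vs WT (-1.15 ± 0.38, adjusted p = 0.0436) but was not called in KO vs CreCtrl (-1.40 ± 0.58, adjusted p = 0.122), where it was 0.06 without CreCtrl replicate 1. Flt4, the receptor for VEGFC, was at 10.3, 16.9 and 11.3 CPM in the WT libraries and 5.24, 1.61 and 0 CPM in their KO libraries. Its Ctrl values of 9.28 and 4.39 CPM stood beside 0.783 and 0.298 CPM in KO, and its CreCtrl values of 11.5 and 5.52 CPM beside 3.06 and 1.95 CPM. Flt4 fell in KO vs CreCtrl (-1.81 ± 0.44, adjusted p = 0.0388), and in KO vs WT a KO library at 0 and another at 5.24 CPM left it uncalled (-2.63 ± 1.10, adjusted p = 0.099). Tek, the angiopoietin receptor, was at 15.1, 37 and 18.5 CPM in the WT libraries and 5.1, 5.31 and 0.0668 CPM in their KO libraries. Against KO levels of 0.717 and 0.179 CPM the Ctrl libraries had 5.79 and 9.37 CPM, and against 2.31 and 3.27 CPM the CreCtrl libraries had 21 and 9.4 CPM. Tek fell in KO vs WT (-2.90 ± 0.94, adjusted p = 0.0421) and in KO vs CreCtrl (-2.47 ± 0.43, adjusted p = 0.0145), and no KO library overlapped its controls. In KO vs WT and KO vs Ctrl, Tek entered the test only through its controls. Tie1, the partner of Tek, was at 24.7, 49.7 and 42.2 CPM in the WT libraries and 15.6, 11.5 and 5.08 CPM in their KO libraries. With Ctrl, 11.9 and 7.21 CPM faced 1.76 and 0.537 CPM, and with CreCtrl 33.4 and 13.3 CPM faced 3.92 and 4.27 CPM. Its log2 fold change was -2.0 ± 0.42 in KO vs WT and -2.54 ± 0.43 in KO vs CreCtrl, both called, and -3.06 ± 0.73 with Ctrl. Eng (endoglin), a co-receptor for BMP and TGF-beta ligands, was at 91, 144.9 and 152.2 CPM in the WT libraries and 25.6, 23.5 and 5.15 CPM in their KO libraries. KO and control gave 2.87 and 7.22 against 30.9 and 24.5 CPM in the Ctrl set, and 5.74 and 7.26 against 65.6 and 54.5 CPM in that of CreCtrl. It was one of the more abundant genes of the list, its sets did not overlap, and it fell, at -2.99 ± 0.51, adjusted p = 0.00217 in KO vs WT and -3.24 ± 0.21, adjusted p = 0.00247 in KO vs CreCtrl. Its exons share 61 bases with Fpgs on the other strand, so its counts depend on the strand setting of the counting. Robo4, an endothelial member of the roundabout family, was at 6.24, 13.8 and 10.5 CPM in the WT libraries and 3.74, 3.28 and 2.67 CPM in their KO libraries. The Ctrl set read 2.9 and 1.93 against 0.391 and 1.01 CPM, and the CreCtrl set 9.45 and 2.92 against 2.6 and 1.6 CPM. It fell in KO vs WT (-1.79 ± 0.45, adjusted p = 0.0152) and not in KO vs CreCtrl (-1.61 ± 0.58, adjusted p = 0.0905), although its KO libraries were below their controls in both.

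Ramp2, a partner of the adrenomedullin receptor, did not share the pattern. It was at 175.3, 185.9 and 166.8 CPM in the WT libraries and 272.9, 226.1 and 198.8 CPM in their KO libraries. Ctrl libraries held 193.8 and 138.5 CPM and their KO libraries 163.5 and 264.7 CPM, while CreCtrl libraries held 197.6 and 230.7 CPM and theirs 265.9 and 223.5 CPM. Its KO libraries were above the controls in the WT set, as were those of 28.6% of all genes, and overlapped them in the Ctrl and CreCtrl sets, and no comparison was called (0.33 ± 0.13, adjusted p = 0.0568 with all libraries), while its sign in KO vs CreCtrl was positive after TMM (0.16) and negative with library size alone (-0.06). The exons of Ramp2 share 1103 bases with Vps25 on the same strand, and Vps25, an endosomal sorting gene of all cells, was at 0 to 1.61 CPM, so the counts assigned to Ramp2 cannot be taken as endothelial Ramp2 alone.

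The 5 transcription factors held some of the largest differences, at low counts. Erg, an ETS factor that keeps endothelial identity, was at 25.1, 28.3 and 34.4 CPM in the WT libraries and 2.65, 1.54 and 0.802 CPM in their KO libraries. Its Ctrl values of 6.78 and 4.87 CPM stood beside 0.456 and 0.477 CPM in KO, and its CreCtrl values of 7.95 and 5.65 CPM beside 0.537 and 0.973 CPM. Its KO libraries were far below every control of their set, and it fell, at -4.28 ± 0.44, adjusted p = 0.000168 in KO vs WT and -3.18 ± 0.46, adjusted p = 0.00868 in KO vs CreCtrl. Sox7, of the SOX subgroup that specifies endothelium, was at 8.95, 3.79 and 8.29 CPM in the WT libraries and 3.06, 1.47 and 1.74 CPM in their KO libraries. Against KO levels of 0.13 and 0.477 CPM the Ctrl libraries had 5.2 and 19.5 CPM, and against 0.785 and 0.904 CPM the CreCtrl libraries had 6.41 and 2.92 CPM. It fell in KO vs WT (-1.88 ± 0.60, adjusted p = 0.039) and KO vs CreCtrl (-2.50 ± 0.52, adjusted p = 0.0251), and the 2 Ctrl libraries were 5.2 and 19.5 CPM, on either side of most WT values. Sox18, of the same subgroup, was at 6.81, 8.61 and 14.8 CPM in the WT libraries and 3.74, 3.42 and 1.07 CPM in their KO libraries. With Ctrl, 4.34 and 2.6 CPM faced 0.587 and 0.239 CPM, and with CreCtrl 6.12 and 4.06 CPM faced 1.45 and 0.799 CPM. It fell, at -2.03 ± 0.59, adjusted p = 0.0274 in KO vs WT and -2.23 ± 0.46, adjusted p = 0.0256 in KO vs CreCtrl. Sox17, the arterial member of the subgroup, was at 2.63, 1.81 and 0.754 CPM in the WT libraries and 0.612, 0 and 0 CPM in their KO libraries. KO and control gave 0 and 0.0597 against 0.724 and 4.01 CPM in the Ctrl set, and 0.165 and 0.243 against 3.42 and 0.254 CPM in that of CreCtrl. Its counts were too few for a firm value. In the Ctrl set 119 counts in the controls faced 1 count in the KO libraries, a ratio of rates of 0.0104 (exact 95% interval 0.00026 to 0.0589, counting error only). KO vs WT was not called (-3.16 ± 1.68, adjusted p = 0.188), and KO vs CreCtrl was not tested. Tal1, a factor of blood and endothelial precursors, was at 3.04, 9.47 and 2.06 CPM in the WT libraries and 0.612, 0 and 0 CPM in their KO libraries. The Ctrl set read 0.658 and 0.632 against 0.0652 and 0.239 CPM, and the CreCtrl set 2.52 and 0.444 against 0.0826 and 0.452 CPM. Tal1 fell in KO vs WT (-4.64 ± 1.53, adjusted p = 0.0441) and overlapped between KO and control in the CreCtrl set (-2.47 ± 1.03, adjusted p = 0.126). In every set Tal1 entered the test only through its controls.

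Of the 7 surface and matrix genes, 5 fell in KO vs WT, 6 in KO vs CreCtrl and 7 in the fit of all libraries. Emcn (endomucin), a sialomucin of capillary and venous endothelium, was at 55.6, 95.4 and 90.5 CPM in the WT libraries and 14, 9.71 and 5.81 CPM in their KO libraries. Ctrl libraries held 15.8 and 15.9 CPM and their KO libraries 2.41 and 5.97 CPM, while CreCtrl libraries held 34.6 and 26.3 CPM and theirs 3.26 and 3.89 CPM. Its sets did not overlap, and it fell, at -3.18 ± 0.34, adjusted p = 0.000228 in KO vs WT and -3.12 ± 0.25, adjusted p = 0.00249 in KO vs CreCtrl. Podxl (podocalyxin), a sialomucin of endothelium and of some epithelia, was at 46.8, 37.2 and 54.9 CPM in the WT libraries and 25, 22.8 and 8.49 CPM in their KO libraries. Its Ctrl values of 37.3 and 37.3 CPM stood beside 12.3 and 7.34 CPM in KO, and its CreCtrl values of 58.2 and 25.5 CPM beside 22.6 and 14.6 CPM. The differences were small for the list: Podxl fell, at -1.45 ± 0.37, adjusted p = 0.0156 in KO vs WT and was not called in KO vs CreCtrl (-1.21 ± 0.38, adjusted p = 0.0665). Cd34, a sialomucin of endothelium that fibroblasts and blood progenitors carry too, was at 266.3, 272.9 and 200.1 CPM in the WT libraries and 17, 6.01 and 9.36 CPM in their KO libraries. Against KO levels of 3.52 and 9.19 CPM the Ctrl libraries had 46.9 and 22.6 CPM, and against 7.89 and 9.83 CPM the CreCtrl libraries had 53.5 and 71.7 CPM. In KO vs WT its log2 fold change of -4.65 ± 0.36, adjusted p = 5.57e-05 was close to that of Tal1 (-4.64), which was the larger fall with DESeq2. Cd34 also fell, at -2.85 ± 0.22, adjusted p = 0.00247 in KO vs CreCtrl. Its exons overlap those of Gm16897 on the other strand. Clec14a, a lectin-domain protein of endothelium, was at 7.47, 28.3 and 14.8 CPM in the WT libraries and 4.08, 0.14 and 0 CPM in their KO libraries. With Ctrl, 7.77 and 5.2 CPM faced 0.848 and 0 CPM, and with CreCtrl 12.4 and 8.06 CPM faced 3.84 and 3.06 CPM. KO libraries ranged from 0 to 4.08 CPM, and it fell in KO vs CreCtrl (-1.61 ± 0.33, adjusted p = 0.0237) while KO vs WT missed the threshold (-3.72 ± 1.30, adjusted p = 0.0561). Mmrn2, an endothelial matrix protein that binds Clec14a, was at 15.8, 37.3 and 19.3 CPM in the WT libraries and 3.88, 2.66 and 1.4 CPM in their KO libraries. KO and control gave 0.848 and 1.07 against 4.87 and 6.54 CPM in the Ctrl set, and 0.991 and 1.63 against 20.7 and 8.44 CPM in that of CreCtrl. It fell, at -3.33 ± 0.49, adjusted p = 0.00102 in KO vs WT and -3.49 ± 0.51, adjusted p = 0.00868 in KO vs CreCtrl. Egfl7, a secreted endothelial protein whose gene hosts the microRNA Mir126a, was at 13.9, 42.8 and 21.9 CPM in the WT libraries and 13.5, 5.94 and 9.42 CPM in their KO libraries. The Ctrl set read 8.29 and 5.61 against 4.63 and 4.89 CPM, and the CreCtrl set 20.0 and 13.3 against 5.16 and 3.44 CPM. Egfl7 fell in KO vs WT (-1.58 ± 0.46, adjusted p = 0.0275) and KO vs CreCtrl (-1.99 ± 0.31, adjusted p = 0.0105), and in the Ctrl set its KO libraries were only just below the controls (-0.55 ± 0.46, adjusted p = 0.807). Its exons overlap other annotated genes by up to 264 bases, so its counts are uncertain. Ecscr, an endothelial surface protein, was at 7.96, 10.4 and 5.07 CPM in the WT libraries and 1.5, 2.72 and 0 CPM in their KO libraries. Ctrl libraries held 1.18 and 1.82 CPM and their KO libraries 0.13 and 0 CPM, while CreCtrl libraries held 3.98 and 3.68 CPM and theirs 0.207 and 0.278 CPM. Ecscr fell in KO vs CreCtrl (-3.98 ± 0.51, adjusted p = 0.00682) and not in KO vs WT (-2.62 ± 1.12, adjusted p = 0.107), and in the Ctrl set 67 counts faced 2, a ratio of 0.0368 (exact 95% interval 0.00437 to 0.138). In every set Ecscr entered the test only through its controls. Its exons share 62 bases with 1700066B19Rik on the other strand.

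**Figure D3:**
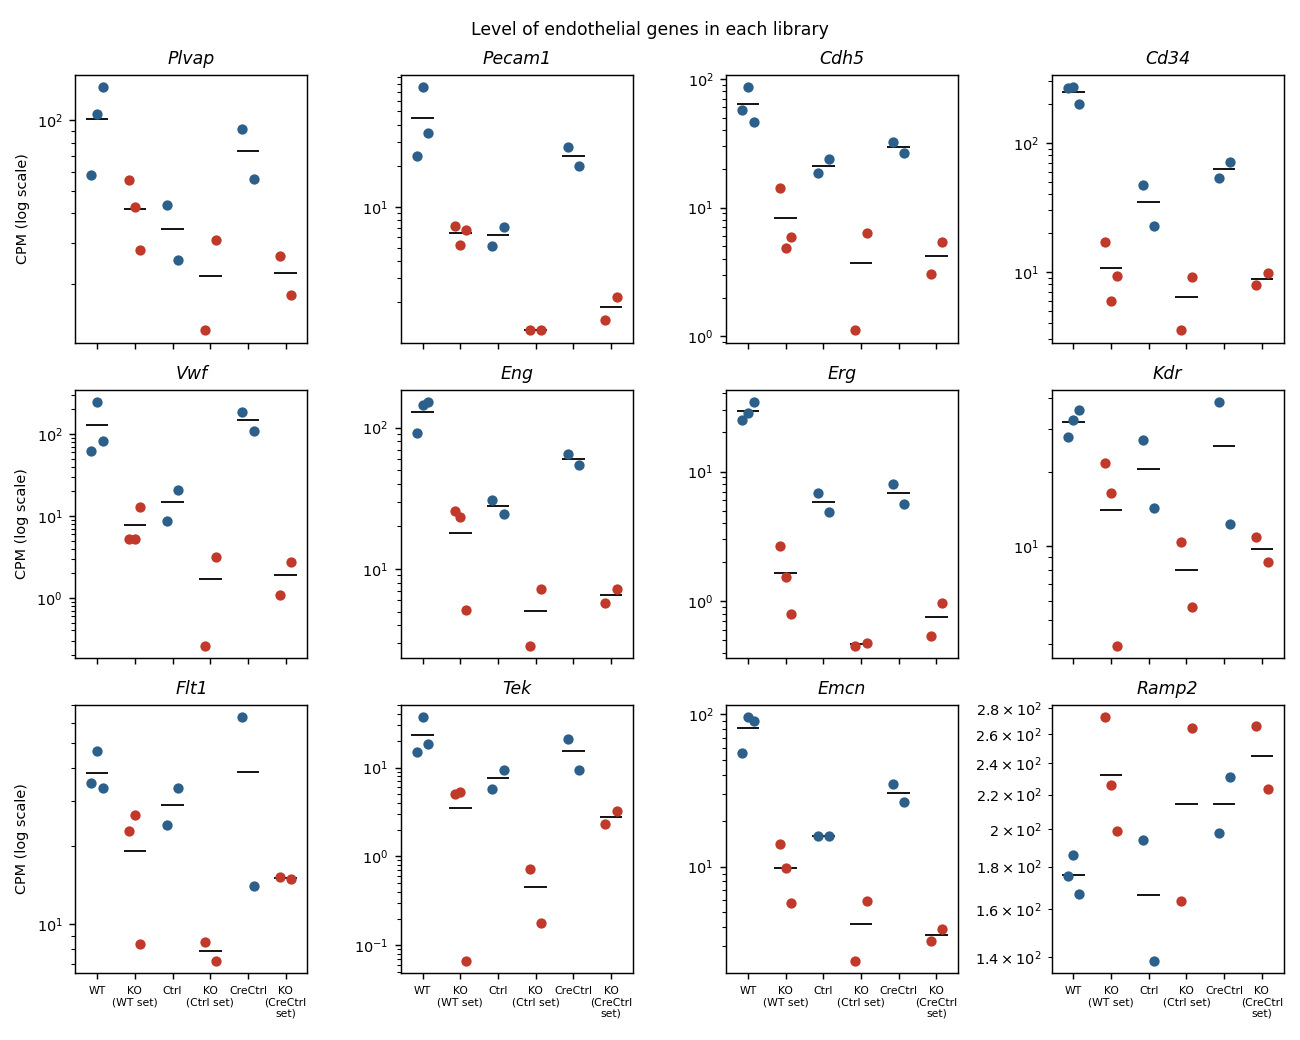
CPM (y axis, log scale) of 12 of the endothelial genes in each of the 14 libraries, by group (x axis); blue points are controls, red points KO libraries, and bars group means. For the other 11 genes the KO mean is below the control mean in each set, with overlapping libraries for Plvap in the Ctrl set and Flt1 in the CreCtrl set, and Ramp2 is at 138.5 to 272.9 CPM throughout.

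Among the capillary genes, Plvap was abundant and Car4 was close to undetected. Plvap (ENSMUSG00000034845, chr8:71497765-71511752) was at 58.2, 106.2 and 138.3 CPM in the WT libraries and 55.3, 42.4 and 27.8 CPM in their KO libraries. Its Ctrl values of 43.6 and 25.3 CPM stood beside 12.7 and 30.7 CPM in KO, and its CreCtrl values of 91.3 and 56.1 CPM beside 26.4 and 18 CPM. In the WT and CreCtrl sets every KO library was below every control, and Plvap fell, at -1.42 ± 0.34, adjusted p = 0.0118 and -1.77 ± 0.27, adjusted p = 0.00991. In the Ctrl set the KO library at 30.7 CPM lay between the controls at 43.6 and 25.3 CPM, and the difference was within the spread (-0.67 ± 0.51, adjusted p = 0.778). Car4 (ENSMUSG00000000805, chr11:84957786-84966044) had 36 counts over all 14 libraries, of which 21 were in KO replicate 2 of the WT set and 9 in WT replicate 3, and 9 libraries had none. A count of 0 allows up to 0.0926 to 0.305 CPM before TMM scaling, depending on the library. Car4 did not reach the filter in any set. Tested with every gene of at least 1 count, it was at 0.92 ± 2.47 (adjusted p = 0.835) in KO vs WT and -2.04 ± 2.56 (adjusted p = 0.681) in KO vs CreCtrl, and it had no count in the Ctrl set. In the fit of all libraries its log2 fold change was 0.06 ± 4.71, adjusted p = 0.994. Gpihbp1, which carries lipoprotein lipase across capillary endothelium, had 0 to 30 counts per library (0 to 2.06 CPM), and was not called in KO vs WT (-1.84 ± 1.68, adjusted p = 0.454) or with all libraries (-1.23 ± 1.14, adjusted p = 0.44). Ly6c1, a surface antigen of capillary endothelium and monocytes, was at 13.7, 30.9 and 18.5 CPM in the WT libraries and 1.36, 2.66 and 4.01 CPM in their KO libraries. Against KO levels of 0.0652 and 0 CPM the Ctrl libraries had 0.724 and 2.16 CPM, and against 0.661 and 0.66 CPM the CreCtrl libraries had 5.47 and 4.0 CPM. It fell, at -3.11 ± 0.50, adjusted p = 0.00155 in KO vs WT and -2.87 ± 0.44, adjusted p = 0.00976 in KO vs CreCtrl, and in the Ctrl set 69 counts faced 1, a ratio of 0.0179 (exact 95% interval 0.000446 to 0.103). Reads of Ly6c1 may be shared with its near-identical neighbour Ly6c2, so its level is uncertain.

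Vwf, the clotting protein stored in endothelium and platelets, was at 61.3, 246.3 and 81.3 CPM in the WT libraries and 5.17, 5.17 and 13 CPM in their KO libraries. With Ctrl, 8.75 and 20.5 CPM faced 0.261 and 3.16 CPM, and with CreCtrl 183.2 and 109.5 CPM faced 1.07 and 2.75 CPM. Its KO libraries were below all controls of their set, it fell, at -4.19 ± 0.62, adjusted p = 0.00108 in KO vs WT, and its log2 fold change of -6.26 ± 0.46, adjusted p = 0.00247 in KO vs CreCtrl was the largest of the genes tested there from the list. Nos3, the endothelial nitric oxide synthase, was at 9.93, 18.8 and 19.3 CPM in the WT libraries and 3.06, 5.03 and 1.8 CPM in their KO libraries. KO and control gave 0.717 and 1.73 against 1.78 and 3.23 CPM in the Ctrl set, and 1.45 and 1.6 against 15 and 6.48 CPM in that of CreCtrl. It fell, at -2.43 ± 0.48, adjusted p = 0.00447 in KO vs WT and -2.85 ± 0.46, adjusted p = 0.0114 in KO vs CreCtrl, and its exons share up to 1040 bases with Gm15587 and Atg9b on the other strand.

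Plvap was then set against 10 pan-endothelial genes (Pecam1, Cdh5, Tie1, Esam, Egfl7, Erg, Eng, Robo4, Clec14a and Mmrn2) inside each library. Per 100 CPM of those genes summed, Plvap was at 21.4, 20.1 and 35.2 CPM in the WT libraries against 56.7, 67.8 and 68.0 CPM in their KO libraries. It was at 43.9 and 28.3 against 85.5 and 130.8 CPM with Ctrl, and at 38.0 and 36.3 against 91.4 and 58.4 CPM with CreCtrl. The 7 KO libraries were all above the 7 controls. Gene by gene, the log2 ratio of Plvap counts to those of Erg was 2.51 higher in KO libraries, to Mmrn2 1.81, to Eng 1.75, to Cdh5 1.72 and to Pecam1 1.59. For each of these 5 genes every KO library was above every control in all 3 sets, with p = 0.00278 in an exact two-sided permutation of the KO labels within sets, the smallest its 720 relabellings can give. For Tie1 the difference was 1.18 (exact permutation p = 0.00556), and for Clec14a 3.15 (exact permutation p = 0.0167), where 2 KO libraries had no Clec14a count and the ratio there depends on the pseudocount of 0.5, and the CreCtrl set differed by -0.17. For Esam (0.56, exact permutation p = 0.144), Robo4 (0.36, exact permutation p = 0.156) and Egfl7 (0.05, exact permutation p = 0.864) the difference was not past the threshold, and for Robo4 the Ctrl set gave 1.09 and the CreCtrl set -0.35. The ratio to Tie1 missed 0.05 without either Ctrl library, and that to Clec14a without any 1 of the WT or Ctrl libraries. The 10 ratios share Plvap as numerator, and these p-values are not adjusted for their number. Relative to 7 of the 10 genes, Plvap was higher in the KO libraries (unadjusted exact permutation p under 0.05), while its own level was lower. For 5 of these 7 genes the KO libraries lay above the controls in all 3 sets. How many other genes would pass the same test was not counted, so the count cannot be read as particular to Plvap. In the fit of all libraries the log2 fold change of Plvap was -1.23 ± 0.27, that of Kdr -1.29 ± 0.34, of Egfl7 -1.34 ± 0.30, of Flt1 -1.35 ± 0.31 and of Podxl -1.44 ± 0.26.

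**Figure D4:**
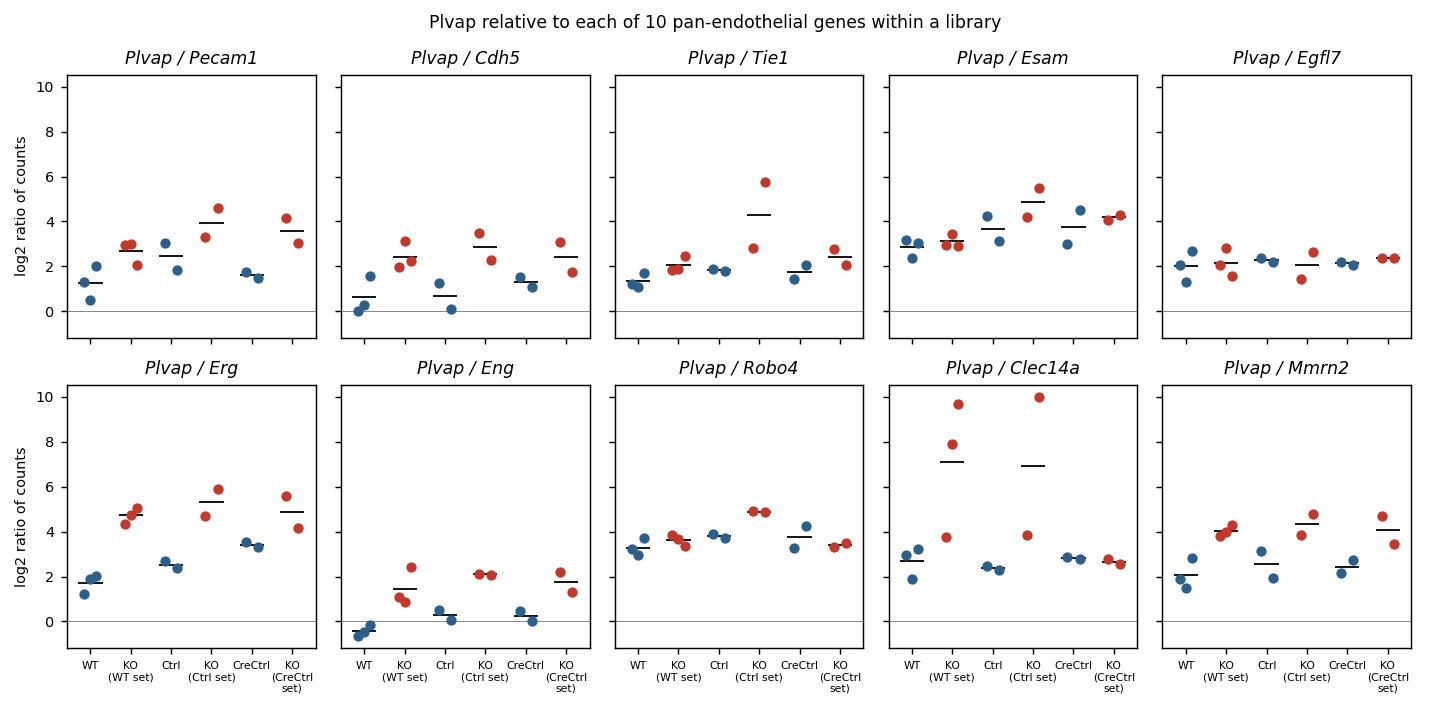
Log2 ratio of Plvap counts to those of each of 10 pan-endothelial genes (y axis, pseudocount 0.5) in each of the 14 libraries, by group (x axis); blue points are controls, red points KO libraries, and bars group means. KO libraries lie above the controls of their set for Pecam1, Cdh5, Erg, Eng and Mmrn2, and overlap them for Esam in every set.

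The size of the KO difference was compared between sets by a test of the difference itself in the fit of 6 groups. None of the 32 genes passed the adjusted threshold in any of the 3 pairs of sets with edgeR, where 5.15% of all genes did for WT against Ctrl, 1.49% for WT against CreCtrl and 0.00% for Ctrl against CreCtrl. At an unadjusted p under 0.05 there were 3, 1 and 3 endothelial genes of 32, and 3780, 2634 and 1545 of all 17662 genes tested. DESeq2 called 3, 0 and 0, where it called 8.79%, 4.50% and 0.628% of all genes. The lowest adjusted p-values were for Sox7 (3.56 ± 1.03 on the log2 scale, adjusted p = 0.0637), Cd34 (-2.07 ± 0.63, adjusted p = 0.0728) and Cldn5 (4.01 ± 1.28, adjusted p = 0.0877), each the effect in the WT set minus that in the Ctrl set. Levels also differed among the controls. Of the 30 genes with a mean of at least 1 CPM, 23 had their highest control level in a WT library, 23 were higher in every WT than in every Ctrl library, as were 23.3% of the 14555 genes at that level. Between CreCtrl and Ctrl the count was 19 (23.1% of those genes), and between WT and CreCtrl 10 (23.6%). Within groups, WT replicate 2 was the highest of its group for 20 of 30 genes, KO replicate 1 of the WT set for 24, and CreCtrl replicate 1 for 28. For these counts and for the highest control level, the share over all genes was not counted. They therefore cannot be read as particular to endothelial genes.

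Of a further 12 endothelial genes outside the list, 8 of 12 fell in KO vs WT (19.0% of all genes), 10 of 11 in KO vs CreCtrl (12.2%) and 11 of 12 in the fit of all libraries (17.6%), and none rose. In KO vs Ctrl none of 11 was called, as none was over all genes, with log2 fold changes of -3.42 to -0.05. The smallest was that of Cd93, a lectin-like receptor, with KO libraries at 1.83 and 29.0 CPM against controls at 14.7 and 17.2 CPM, a gene named after its values were seen. Calcrl, the adrenomedullin receptor to which Ramp2 binds, was at 19.5 to 24.4 CPM in WT against 0.0699 to 2.11 CPM in their KO libraries (-4.77 ± 0.85, adjusted p = 0.00272). Adgrf5, an adhesion receptor of capillaries, was at 17.8 to 53.4 against 5.88 to 13.2 CPM (-1.80 ± 0.48, adjusted p = 0.019). Of 10 ligands of the receptors, 8 were tested in KO vs WT, where 2 rose and 2 fell, and 9 in KO vs CreCtrl, where 4 fell and none rose. Over all genes, 16.1% rose and 19.0% fell in KO vs WT, and 3.60% rose and 12.2% fell in KO vs CreCtrl. The count in KO vs WT cannot be read as particular to the ligands. Vegfa, the ligand of Kdr and Flt1, was at 438.3 to 539.1 CPM in WT against 1107.1 to 1228.4 CPM in their KO libraries (1.09 ± 0.13, adjusted p = 0.000415), and at 1067.3 and 1089.2 against 1067.1 and 1169.6 CPM in the CreCtrl set (0.02 ± 0.18, adjusted p = 0.954). With Ctrl it was at 728.5 and 881.4 against 885.3 and 1106.1 CPM (0.30 ± 0.27, adjusted p = 0.823), and it rose in the fit of all libraries (0.63 ± 0.19, adjusted p = 0.0165). Pgf, placental growth factor, was at 167.9 to 257.5 against 16.4 to 26.9 CPM in the WT set (-3.49 ± 0.25, adjusted p = 4.38e-05), and Angpt1, the agonist of Tek, at 78.7 to 100.7 against 1.94 to 10.3 CPM (-4.11 ± 0.49, adjusted p = 0.000372). Both fell in KO vs CreCtrl too, Pgf at -1.86 ± 0.21 (adjusted p = 0.00489) and Angpt1 at -2.93 ± 0.41 (adjusted p = 0.00782).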

How the data were processed

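Bulk RNA-seq of mouse RPE was available as a table that the authors deposited of raw counts for each Ensembl gene, with 1 column for each of 14 libraries. The authors made stranded poly(A) libraries and aligned paired-end reads to GRCm38 with STAR 2.5.2 (the submitters' processing notes also name bcl2fastq 2.19, HTSeq 0.11.2 and Cufflinks 2.1.1). The counting tool, its strand setting and the annotation release are not given in the sources used here. Names and positions came from GENCODE M21, which held 42329 of the 42687 genes. KO libraries were placed in sets by how their titles are written. The labels do not say that libraries came from separate mice, but the study's supplement lists as many male mice of each genotype as there are libraries.

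Counts were tested with edgeR 4.0.16 (R 4.3.3): TMM, filterByExpr with a minimum count of 10, quasi-likelihood F test, Benjamini-Hochberg adjustment over all genes tested and a threshold of 0.05. The standard error is the absolute log2 fold change divided by the root of F. DESeq2 1.42.0, the tool of the study, other scalings and filters, a replicate block, a fit of 6 groups and leaving out each library were alternatives. Ratios of Plvap to other genes used counts plus 0.5 and exact permutation within sets (scipy 1.17.1), an addition made after the data were seen. Intervals and limits from counts cover counting error only. Motif windows came from RefSeq (GRCm38.p6). The 2 closest libraries of a group still differed by a chi-square per gene of 18.0, so none was taken for a duplicate. The tests were checked on simulated data. By rule, genes with a mean of at least 1 CPM (and Plvap, Car4, Pecam1 and Cdh5) got their value in each library and the other members a range, and up to 4 genes of each other list, by mean level, could be named, with Clic4. The members, lists and this rule were chosen with earlier results of these data known.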

Additional observations from a re-analysis of the deposited data

How the results depend on the processing

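Limits of these data are few libraries (2 or 3 a group), counts of 0 to 30 per library for Car4 and Gpihbp1, and controls that differ in genotype and set together. In the fit of all libraries, the number of endothelial genes called stayed at 27 to 29 under other scalings, filters, tests and designs, all of them lower, and at 28 to 30 when 1 library was left out, where Ramp2 rose past the threshold without Ctrl replicate 1 or without KO replicate 1 of the Ctrl set. In KO vs WT the count was 18 to 26 under other scalings, filters, tests and designs and 13 to 26 when 1 library was left out: 15 without WT replicate 2, 13 without WT replicate 3 and 14 without KO replicate 2 of that set. In KO vs Ctrl it was 0 with edgeR, 19 with DESeq2, 22 with every gene of at least 1 count, 13 in the fit of 6 groups, and 0 to 4 when 1 library was left out, the 4 without Ctrl replicate 1. In KO vs CreCtrl it was 12 in the fit of 6 groups, 21 to 29 under the other alternatives and 18 to 28 when 1 library was left out. The cause was not tested.

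Same-numbered KO and control libraries did not deviate together in every pair (correlations of -0.0156 to 0.130), so the numbers were not taken as pairs. With the replicate block the calls numbered 18 for WT, 1 for Ctrl, 27 for CreCtrl and 29 with all libraries.

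For differences between sets, testing every gene of at least 1 count gave 4, 3 and 1 genes (WT minus Ctrl, WT minus CreCtrl, Ctrl minus CreCtrl). Over all 27272 genes tested that way, 2262, 1102 and 883 were called. DESeq2 gave 3 for WT minus Ctrl, and leaving out 1 library gave 0 to 3 for WT minus Ctrl (3 without Ctrl replicate 1, 1 without KO replicate 1 of the WT set and 1 without KO replicate 1 of the Ctrl set).

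With library size alone, all genes tested had a median log2 fold change of -0.32 (WT), -0.10 (Ctrl), -0.24 (CreCtrl) and -0.29 (all libraries). The share of lower among all calls went from 54.1% to 69.6% (WT), from 77.3% to 92.6% (CreCtrl) and from 48.7% to 76.0% (all libraries). In KO vs CreCtrl that share was 59.6% with DESeq2 and 61.2% with every gene of at least 1 count, and genes called over all numbered 704 in the fit of 6 groups, 4793 with every gene of at least 1 count, 4096 with DESeq2 and 3824 with the block, against 2529. In KO vs Ctrl they numbered 1658, 1111, 648 and 113 (at least 1 count, DESeq2, 6 groups, block) against 0.

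Signs reversed for genes that were not called: Ramp2 in KO vs Ctrl without KO replicate 2 (-0.02, range when 1 library was left out -0.02 to 0.67) and in KO vs CreCtrl with library size alone (-0.06), Flt1 in KO vs CreCtrl without CreCtrl replicate 1 (range -2.13 to 0.06), and Car4 with all libraries under RLE (-0.04), library size alone (-0.26), DESeq2 (-0.08) and the replicate block (-0.74), and when 1 of 4 libraries was left out (range over all -0.40 to 0.99). The Plvap to Egfl7 ratio reversed when WT replicate 2 (-0.10) or the KO library of that number (-0.07) was left out, with a range of -0.10 to 0.20. The ratio to Tie1 missed an exact permutation p of 0.05 without either Ctrl library, that to Clec14a without any WT or Ctrl library, and those to Esam (0.78) and Robo4 (0.50) passed it without CreCtrl replicate 2 (exact permutation p = 0.0333 and 0.0278).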

Other observations

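Genes of particular vessel types were also read in the fit of all libraries, where 17.6% of all genes fell and 18.5% rose. All 5 arterial genes tested of 6 fell there (adjusted p under 0.05, edgeR), against 2 of 4 in KO vs WT, 0 of 3 in KO vs Ctrl and 0 of 4 in KO vs CreCtrl, with Efnb2, an arterial ephrin, at -1.22 ± 0.42 (adjusted p = 0.0361) but 0.04 ± 0.45 (adjusted p = 0.959) in KO vs CreCtrl, and Hey1, a Notch target, at -1.76 ± 0.40 (adjusted p = 0.00397). All 3 venous genes fell, with Ephb4, the receptor of Efnb2, at -1.27 ± 0.19 (adjusted p = 0.000298). Within sets, 2 of 2 venous genes tested fell in KO vs WT, 0 of 2 in KO vs Ctrl and 1 of 2 in KO vs CreCtrl. Of 3 lymphatic genes, Lyve1 and Prox1 fell and Ccl21a was at 0 in every library. Within sets, 1 of 2 lymphatic genes tested fell in KO vs WT, 0 of 1 in KO vs Ctrl and 1 of 2 in KO vs CreCtrl. Some genes of these vessel types were low in the 7 KO libraries. The arterial Gja4 was at 0 to 0.884 CPM there and another arterial gene at 0 to 0.289 CPM. The venous Aplnr was at 0 to 0.104 CPM and Lyve1 at 0 to 0.626 CPM. Such genes may have entered a test only through their controls, which was not counted, so their calls may follow in part from the filter. Of 4 genes of the endothelial barrier of the retina, Slco1c1, a thyroid hormone transporter, was at 99.4 to 346.4 CPM in the 7 controls and 363.4 to 550.1 CPM in the 7 KO libraries (1.24 ± 0.19, adjusted p = 0.000412), and Mfsd2a, a lipid transporter, at 39.6 to 88.6 against 90.0 to 125.2 CPM (0.71 ± 0.15, adjusted p = 0.00279). The summed RPE markers were higher in the KO libraries too, and which cells held the RNA of Slco1c1 and Mfsd2a was not tested. Pglyrp1, a peptidoglycan recognition protein, was not called (-0.76 ± 1.17, adjusted p = 0.656, and -5.03 ± 1.03, adjusted p = 0.124 in KO vs Ctrl), and Slc38a5, an amino acid transporter of the same list, was at 0 to 0.48 CPM in every library.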
